A study of Mus musculus with 8 samples.

Results

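The Notch genes described here are 10 members of the pathway, chosen by name: the receptors Notch1, Notch2 and Notch3, the ligands Jag1, Dll1 and Dll4, and the target genes Hes1, Hey1, Hey2 and Heyl. Each symbol matched 1 row of the deposited count table, so that all 10 were found among 55487 gene rows. The table covers 8 libraries of mouse E14-Tg2a embryonic stem cells, taken on day 6 of a serum-free differentiation towards precardiac mesoderm. The 4 parental libraries are labelled WT and came from the E14-Tg2a line itself. The 4 mutant libraries are labelled Tbx1-/- and came from its derivative E14-Tg2a 4D. All 8 went through the same in vitro differentiation, and no sample label names a further treatment. Because every mutant library came from line 4D, the Tbx1 genotype and other properties of that line cannot be told apart. The study's design text calls the 4 libraries of a line biological replicates.

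Notch signalling passes between touching cells. A ligand of the Jagged or Delta-like family on the surface of a cell binds a Notch receptor on its neighbour, and the receptor is then cut by an ADAM metalloprotease and by gamma-secretase. The freed intracellular domain enters the nucleus, where it joins the DNA-binding protein RBPJ and a Mastermind coactivator, and switches on genes such as those of the HES and HEY families of basic helix-loop-helix repressors. In the embryonic heart the pathway is known for roles in endocardium, valves, outflow tract and the vessel wall. Delta-like ligands, Lfng and Hes7 are also known as parts of the segmentation clock of presomitic mesoderm. RNA levels do not show whether the receptors were cut or active.

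QuantSeq tags only transcript 3′ ends, so long transcripts gain no extra counts, and levels of different genes were set side by side without division by length. The unit of a level is CPM, the count per library total multiplied up and corrected by the trimmed mean of M values (TMM) for differences in composition. Total counts ran from 3803561 to 6293907 per library. Tbx1, the targeted gene, had 39, 65, 38 and 22 counts in the parental and 3, 0, 1 and 0 counts in the mutant line, in the order of libraries 1 to 4 (edgeR quasi-likelihood test, Benjamini-Hochberg adjusted p = 0.00432). The labels do not say which part of Tbx1 is changed. Mutant library 4 stood apart. With every library thinned to the same total count, 14850 genes had at least 1 count in it, against 17627 to 18622 in the other 7. The ribosomal RNA gene CT010467.1 took 17.7% of its counts and 8.90% to 13.0% of those in the other 7, so that fewer counts were left for other genes. The label of precardiac mesoderm was checked against genes of neighbouring stages. Mesp1, a marker of the earliest cardiac mesoderm, had at most 22 counts, and the pluripotency factor Pou5f1 had at most 14. The cardiac troponin Tnnt2 had 109 to 2260 counts. Other genes of the same marker lists went the other way. T, listed with Mesp1, had 10 to 173 counts, and Klf4, listed with Pou5f1, had 45 to 113. Of the cardiomyocyte list, Nppa had at most 4 counts and Myh6 had 3 to 679. These genes therefore do not fix the stage.

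The members covered a wide range of levels, and their order was led by Hes1 in both lines. Over the 8 libraries the mean was 95.2 CPM for Hes1, which stood above 85.6% of the 13280 genes tested. Notch3, Jag1 and Notch2 followed at 42.7, 42.2 and 39.6 CPM. Hey1 and Hey2 had 13.1 and 10.6 CPM, and Dll4 and Dll1 had 5.03 and 4.34 CPM. Notch1 and Heyl were the lowest, at 1.71 and 0.600 CPM, and both fell below the low-count filter and were not tested. Neighbours in this order often did not differ beyond their spread. In parental libraries Jag1, Notch3 and Notch2 had overlapping ranges, as did Hey2 and Dll4, whereas Hes1 lay above every other member. In mutant libraries Notch3, Notch2 and Jag1 again formed an overlapping group, and Hey1 and Hey2 overlapped each other.

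**Figure D1:**
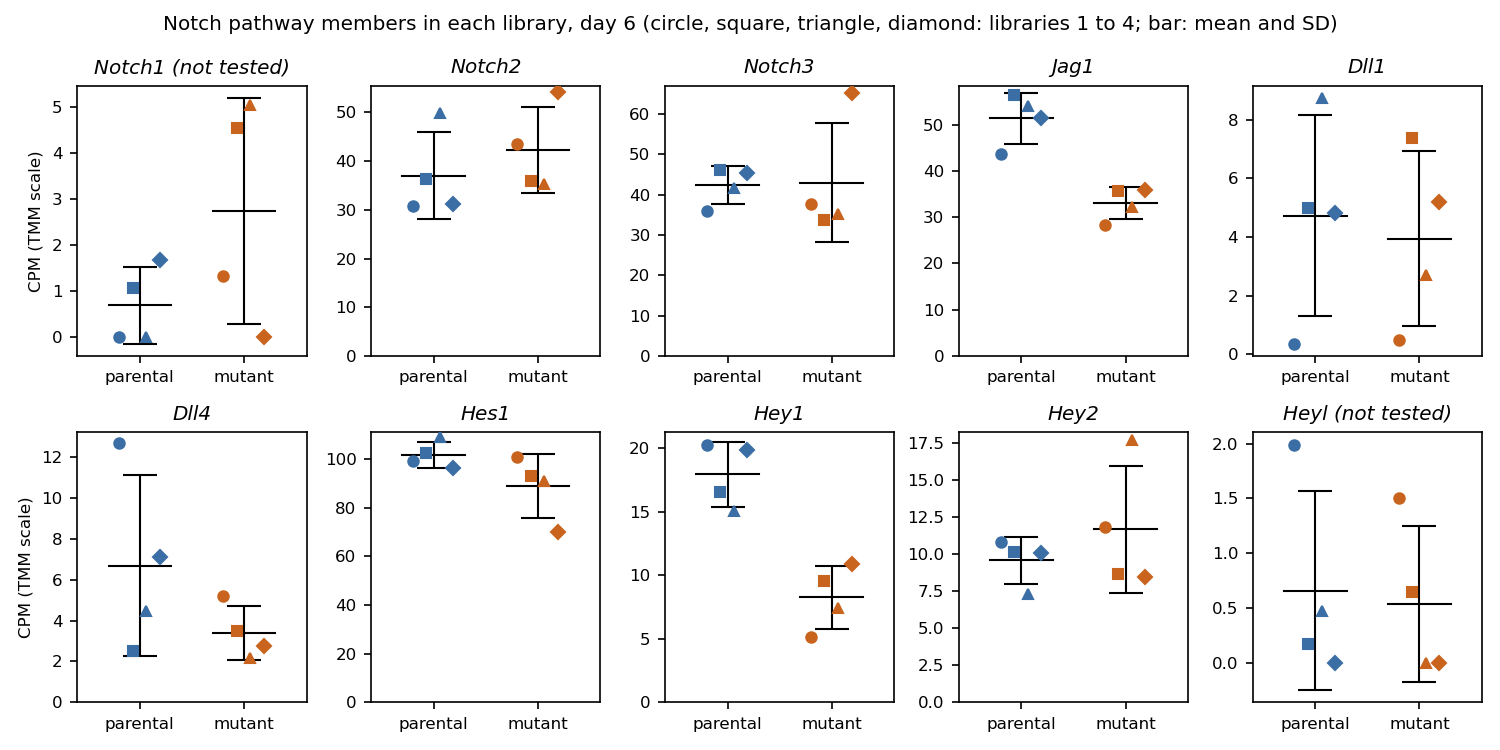
Level of each of the 10 Notch members in CPM (vertical axis, a separate scale per panel) in the 4 parental and 4 mutant libraries (symbols mark libraries 1 to 4, bars the mean and SD of a line). The mutant points of Jag1 and Hey1 lie below all parental points, while the points of the lines overlap in the other 8 panels.

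Promoter sequences were compared between the members. RefSeq on build GRCm38.p6 gave 300 bases around the start site for 7 of the 10 members, with 8 start sites in all. Hes1, Hey1 and Heyl are the members with no entry. Both strands were searched for TGGGAA, the core letters bound by RBPJ, and for CACGCG, a site of HES and HEY repressors. Of the 7 members, only Hey2 held TGGGAA in this window, and Hey2 was also the only target gene among them. It held 2 matches, each part of the longer form GTGGGAA, against a share of 25.6% of all 32851 promoters with at least 1 match and 3.79% with 2 or more. At least 2 matches to GTGGGAA occurred in 0.256% of promoters. CACGCG was present for Jag1, with 2 matches, and for Dll1, Dll4 and Notch2, with 1 each, against 9.27% of all promoters with at least 1 match and 1.67% with 2 or more. The E-box CACGTG and the T-box letters GGTGTGA were found in 0 of the 8 member promoters, and in 7.15% and 3.98% of all promoters. The shares of all promoters were not matched to the members for base composition. No member held matches to both RBPJ and HES or HEY letters, and each GTGGGAA contains a TGGGAA. A match is a run of letters and not a measured binding site. The sequences of Hey2 and Jag1 are shown because Hey2 is the HEY target with letters of the pathway's own DNA-binding protein at its start, and Jag1 is the ligand whose level differed most clearly between the lines. Each runs 5′ to 3′ on the minus strand, from 250 bases before the RefSeq start to 10 bases after it. Capitals mark TGGGAA or its complement in Hey2 (chr10:30842774-30843033), and CACGCG or its complement in Jag1 (chr2:137116511-137116770).
Hey2: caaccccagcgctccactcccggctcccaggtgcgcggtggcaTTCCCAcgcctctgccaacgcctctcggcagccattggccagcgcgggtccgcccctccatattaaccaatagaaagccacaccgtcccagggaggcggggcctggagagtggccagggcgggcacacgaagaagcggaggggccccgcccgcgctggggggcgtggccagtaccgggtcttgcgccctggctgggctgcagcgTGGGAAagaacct
Jag1: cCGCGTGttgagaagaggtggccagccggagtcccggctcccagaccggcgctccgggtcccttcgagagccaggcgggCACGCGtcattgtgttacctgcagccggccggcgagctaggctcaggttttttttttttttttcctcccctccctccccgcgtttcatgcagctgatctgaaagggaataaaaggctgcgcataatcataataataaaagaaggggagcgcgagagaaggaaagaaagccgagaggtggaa
The 2 matches of Hey2 began 207 and 3 bases before the start, and the second ran across it. Those of Jag1 began 249 and 171 bases before the start.

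Among the 3 member receptors most RNA came from Notch2 and Notch3, and neither gene passed the test between the lines. Notch2 (chromosome 3, 98013527 to 98150361, plus strand) is a broadly expressed receptor. It had 30.7, 36.4, 49.8 and 31.2 CPM in parental libraries 1 to 4 and 43.6, 36.0, 35.2 and 54.1 CPM in mutant libraries 1 to 4. The lines overlapped, and mutant library 4 had the highest value. Notch2 overlaps 2 unverified gene models on its own strand, Gm42819 and Gm42820, which had at most 37 and 38 counts in a library, and how shared reads were assigned is not given in the sources used here. The log2 fold change, mutant minus parental, was 0.18 ± 0.21 (SE), with a 95% interval from -0.25 to 0.62, an edgeR p of 0.389 and an adjusted p of 0.794. It was 0.04 without mutant library 4 and 0.35 without parental library 3. Notch3 (chromosome 17, 32120820 to 32166852, minus strand) is the receptor known for mural cells of vessels. Its parental levels were 36.0, 46.2, 41.7 and 45.5 CPM, and its mutant levels 37.8, 33.8, 35.2 and 65.1 CPM. Mutant libraries 1 to 3 lay close together, and library 4 was far above them. Mutant minus parental, the log2 fold change was 0.01 ± 0.21 (SE), with a 95% interval from -0.43 to 0.46 and an adjusted p of 0.991. Without mutant library 4 it was -0.25, with an adjusted p of 0.662.

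Notch1 (chromosome 2, 26457903 to 26516663, minus strand), the founding receptor of the family in mammals, was barely counted. Parental libraries 1 to 4 had 0, 6, 0 and 8 counts, and mutant libraries 1 to 4 had 8, 21, 28 and 0. The highest counts were in mutant libraries 2 and 3, but the lines overlapped. Mutant library 4 had 0, and mutant library 1 had 1.34 CPM against 1.68 CPM in parental library 4. A count of 0 allows up to 0.543 CPM in parental library 1, 0.476 CPM in parental library 3 and 0.820 CPM in mutant library 4, for counting error only. As a share of the counts of the 3 receptors, Notch1 held the most in mutant library 2, at 6.12% (95% exact Clopper-Pearson interval 3.83 to 9.21), and in mutant library 3, at 6.70% (4.50 to 9.54). In parental libraries its highest share was 2.14% (0.928 to 4.17), in library 4. Notch3 held 45.6% to 58.0% of receptor counts in parental and 45.5% to 54.6% in mutant libraries, beside Notch2 with most of the rest.

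Ligand RNA was mostly Jag1, and all 3 ligands had negative log2 fold changes, of which none passed the adjusted threshold of 0.05 in edgeR. Jag1 (chromosome 2, 137081456 to 137116644, minus strand) is the Jagged ligand whose human counterpart is mutated in Alagille syndrome, a disorder with defects of the outflow tract. It had 241, 316, 341 and 245 counts in parental libraries 1 to 4 and 170, 165, 178 and 131 in the mutant ones. On the CPM scale these were 43.6, 56.4, 54.1 and 51.3 in parental and 28.4, 35.8, 32.2 and 35.8 in mutant libraries. Every mutant value lay below every parental value. The means were 51.4 ± 5.58 and 33.0 ± 3.53 CPM (SD, n = 4 per line), so that the parental mean was 1.55 times the mutant mean. On the log2 scale the fold change was -0.64 ± 0.17 (SE), with a 95% interval from -1.003 to -0.28, an edgeR p of 0.00164 and a Benjamini-Hochberg adjusted p of 0.0805. In a two-sided exact permutation test p was 0.0286, the lower limit for this number of libraries, and 0.38 after adjustment over all 13280 genes. Absence of overlap in this direction was seen for 4.04% of all tested genes. In bulk samples, fewer cells of a type that makes Jag1 and less Jag1 RNA per cell cannot be told apart.

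Jag1 was also the steadiest of the ligands. Its coefficient of variation was 10.9% in parental and 10.7% in mutant libraries, where counting error alone would give 5.92% and 7.88%. It made up 77.0% to 88.3% of the counts of the 3 ligands in the parental and 76.7% to 86.8% in the mutant line, and these ranges overlap almost fully. The summed level of the 3 ligands was 56.6 to 67.3 CPM in the parental line and 34.1 to 46.6 CPM in the mutant line, a description of the members that was not tested.

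Dll4 (chromosome 2, 119325784 to 119335962, plus strand) is the Delta-like ligand of arterial and sprouting endothelium. It had 12.7, 2.50, 4.44 and 7.13 CPM in the parental line and 5.18, 3.47, 2.17 and 2.73 CPM in the mutant line, in the order of libraries 1 to 4. The high parental value was library 1, and the other parental libraries overlapped the mutant ones. The log2 fold change was -0.97 ± 0.59 (SE), with a 95% interval from -2.20 to 0.27 and an adjusted p of 0.564. Without parental library 1 it was -0.46, with an adjusted p of 0.887. Dll1 (chromosome 17, 15367354 to 15376872, minus strand) is the Delta-like ligand of presomitic mesoderm and neural progenitors. Its counts were 2, 28, 55 and 23 in parental and 3, 34, 15 and 19 in mutant libraries 1 to 4. Library 1 of each line was at or under 3 counts, while the other 6 ranged from 15 to 55. The log2 fold change of -0.28 ± 0.80 (SE) had a 95% interval from -1.95 to 1.39 and an adjusted p of 0.939, and it turned positive, at 0.20 and 0.09, without parental library 3 and without mutant library 1. That interval spans both a large fall and a large rise.

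Among the targets, Hes1 had the highest level and Hey1 the largest fold change of the tested members, and none passed the adjusted threshold in edgeR. Hes1 (chromosome 16, 30064384 to 30067796, plus strand) encodes a repressor known for keeping progenitors undifferentiated. It had 99.1, 102, 109 and 96.4 CPM in the parental line and 100.8, 93.0, 91.1 and 70.0 CPM in the mutant line. Mutant library 1 lay within the parental range and mutant library 4 was the lowest. Mutant minus parental, the log2 fold change was -0.19 ± 0.14 (SE), with a 95% interval from -0.48 to 0.09, an adjusted p of 0.633 and an exact permutation p of 0.0857. Without mutant library 4 it was -0.10. With a coefficient of variation of 5.29% against 4.20% from counting alone, parental Hes1 varied least of the members.

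Hey1 (chromosome 3, 8663359 to 8667256, minus strand) encodes a HEY repressor of endocardium, atrial myocardium and vessels. It had 112, 93, 95 and 95 counts in parental libraries 1 to 4 and 31, 44, 41 and 40 in the mutant ones. These are 20.3, 16.6, 15.1 and 19.9 CPM in the parental line and 5.18, 9.54, 7.41 and 10.9 CPM in the mutant line. All mutant values lay below all parental values, with a gap between 10.9 and 15.1 CPM. The means were 17.96 ± 2.53 and 8.27 ± 2.52 CPM (SD, n = 4 per line), a parental mean 2.17 times the mutant mean. On the log2 scale the fold change was -1.13 ± 0.31 (SE), with a 95% interval from -1.79 to -0.47, an edgeR p of 0.00204 and an adjusted p of 0.0892. The exact permutation p was 0.0286, again the smallest possible, and 0.38 after adjustment over all genes. Without mutant library 4 the log2 fold change was -1.29 and Hey1 passed the threshold with an adjusted p of 0.0448, in a fit that called 1.29% of all genes. This was the only call for Hey1 among the 8 fits that each left out 1 library. In the other 7 fits the adjusted p was up to 0.222, without parental library 1, and the value nearest 0 was -0.96, without mutant library 1.

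Hey2 (chromosome 10, 30832359 to 30842801, minus strand), the HEY repressor of ventricular myocardium, did not pass the test. It had 10.9, 10.2, 7.30 and 10.1 CPM in the parental line and 11.9, 8.67, 17.7 and 8.48 CPM in the mutant line. The lines overlapped, and mutant library 3 was the highest. The log2 fold change was 0.29 ± 0.35 (SE), with a 95% interval from -0.44 to 1.02 and an adjusted p of 0.807. Without mutant library 3 it was 0.0095, and without parental library 3 it was 0.17. Whether the fold changes of Hey1 and Hey2 differ was not tested. Heyl (chromosome 4, 123233556 to 123249875, plus strand), a HEY relative found in mural cells, had 11, 1, 3 and 0 counts in parental and 9, 3, 0 and 0 counts in mutant libraries. Library 1 of each line held most of these counts.

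The balance of Hey1 to Hey2 within a library needs no scaling between libraries, and was described after the values of both genes had been seen. Hey1 made up 65.1%, 62.0%, 67.4% and 66.4% of the counts of the 2 genes in the parental line, by library number. In the mutant line it made up 30.4%, 52.4%, 29.5% and 56.3%. Thus Hey1 outnumbered Hey2 in all 4 parental libraries and in mutant libraries 2 and 4, and Hey2 outnumbered Hey1 in mutant libraries 1 and 3. The counting intervals were wide: the 95% exact Clopper-Pearson interval was 53.7% to 69.8% in parental library 2 and 44.0% to 68.1% in mutant library 4, so that the nearest libraries of the lines were not separated by counting error. This share was given no test. The summed level of the 4 targets was 126 to 132 CPM in the parental line and 89.4 to 119 CPM in the mutant line, of which Hes1 made up 75.0% to 84.5%.

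**Figure D2:**
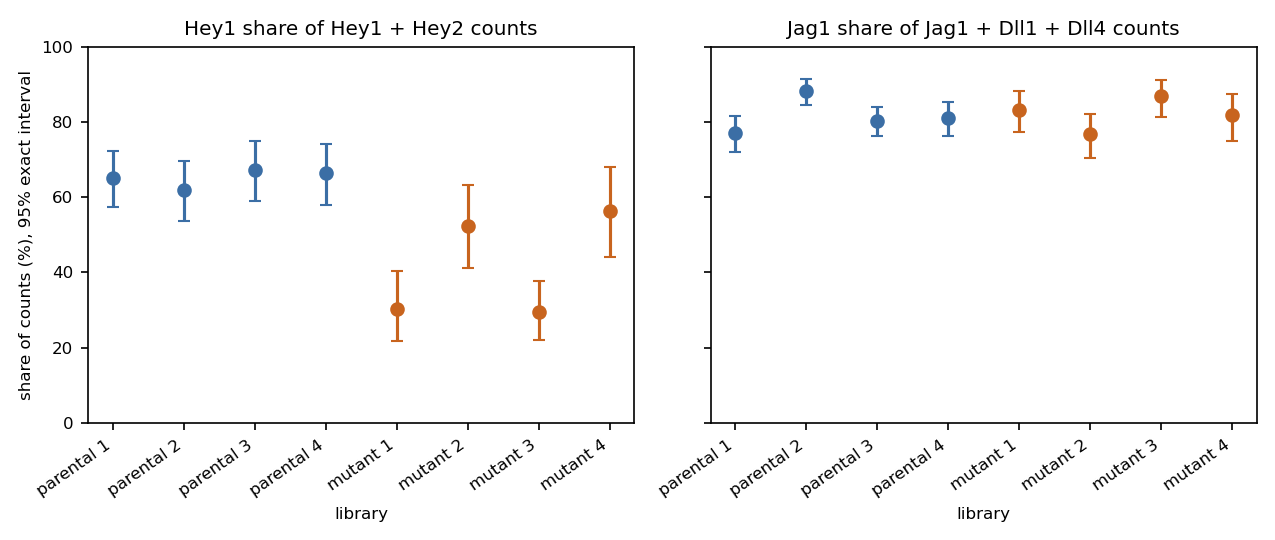
Share of Hey1 in the counts of Hey1 and Hey2 (left) and of Jag1 in the counts of the 3 member ligands (right), in percent, per library with 95% exact Clopper-Pearson intervals. Parental Hey1 shares lie between 62.0% and 67.4% and mutant shares between 29.5% and 56.3%, while the Jag1 shares of the lines overlap.

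Across the members, 0 of the 8 tested passed the adjusted threshold in edgeR, where 1.42% of all 13280 genes did. An unadjusted p under 0.05 was found for 2 of the 8, Jag1 and Hey1, against 11.9% of all genes, and the same 2 were without overlap between the lines, against 7.52% of all genes in either direction. DESeq2 called both lower, with adjusted p of 0.0263 for Jag1 and 0.0292 for Hey1, in a test that called 3.05% of all genes. limma-voom called 0 of the 8, where 1.9% of all genes were called, with adjusted p of 0.0624 and 0.0616. With library quality weights, which let libraries that stand apart count less and were added after the data had been seen, limma-voom called Jag1 at 0.0464 and had Hey1 at 0.0554, where 2.01% of all genes were called. Both fold changes kept their sign in all 19 other settings tried, with log2 values from -0.72 to -0.58 for Jag1 and from -1.29 to -0.96 for Hey1. Of the 8 tested members 3 had positive and 5 negative log2 fold changes, and their median was -0.24, beside 0.00 over all tested genes.

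**Figure D3:**
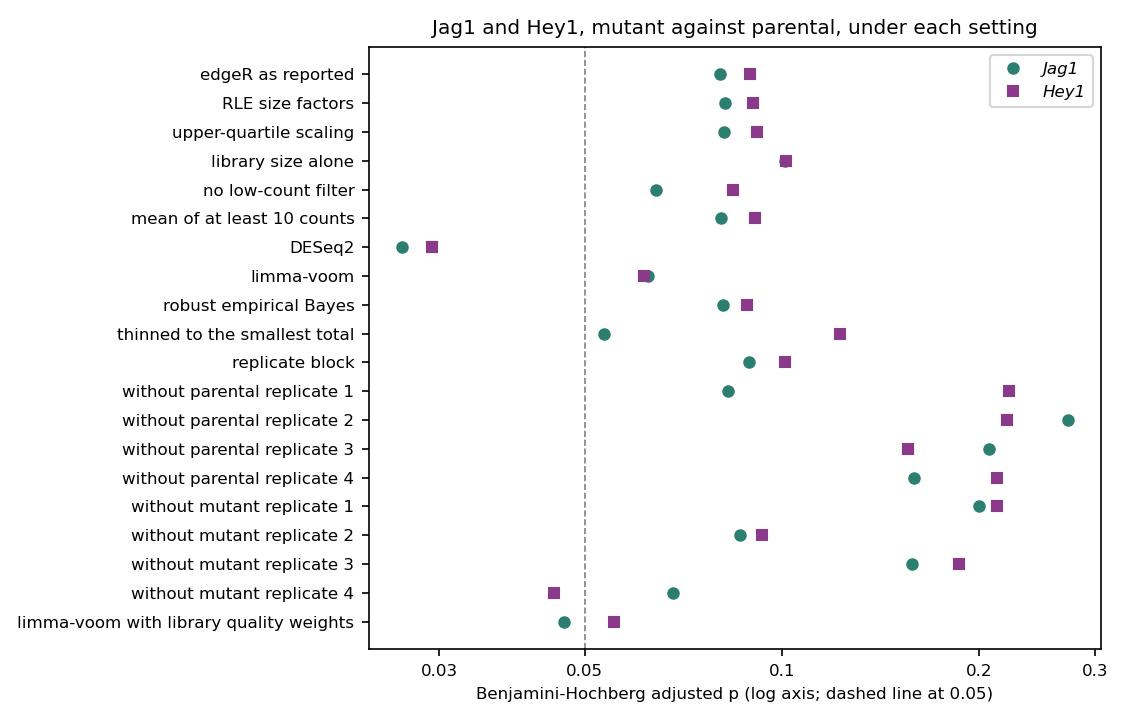
Benjamini-Hochberg adjusted p (horizontal log axis) of Jag1 (circles) and Hey1 (squares) in the edgeR test as reported and in 19 other settings, with a dashed line at 0.05. Jag1 falls left of the line with DESeq2 and with quality-weighted limma-voom, and Hey1 with DESeq2 and without mutant library 4.

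The rest of the pathway was read from 57 genes listed by role, of which 53 passed the low-count filter. In edgeR 0 of the 53 were called, where 1.42% of all genes were. An unadjusted p under 0.05 was found for 5 of the 53, against 11.9% of all genes. DESeq2, limma-voom and its quality-weighted form also called 0, where they called 3.05%, 1.9% and 2.01% of all genes. Their log2 fold changes were positive for 25 and negative for 28, with a median of -0.05. Rbpj, which encodes the DNA-binding protein and was named after its values were seen, had 37.8 to 79.8 CPM in the parental line and 20.5 to 61.8 CPM in the mutant line, with the lowest value in mutant library 4.

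Among the genes that prepare and cut the receptors, 0 of 5 tested for glycosylation and 0 of 9 tested for cleavage passed the adjusted threshold. Of all tested genes 1.42% passed it. In the cleavage list 1 gene, Adam10, had an unadjusted p under 0.05, against 11.9% of all genes. Adam10, the metalloprotease of the first ligand-dependent cut, had a log2 fold change of 0.33 ± 0.15 (SE) with an adjusted p of 0.381. Aph1a, a subunit of gamma-secretase, had -0.58 ± 0.30 with an adjusted p of 0.484. Among glycosyltransferases that tune which ligand a receptor prefers, Lfng had -1.12 ± 0.68 and Poglut1 -0.22 ± 0.17. Of the ubiquitin ligases that let ligand-bearing cells pull on the receptor, Mib2 had 0.20 ± 0.28 and Neurl1b -0.13 ± 0.38, the latter turning to 0.12 without mutant library 1.

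In the nucleus, the histone acetyltransferases Ep300 and Kat2b had log2 fold changes of -0.20 ± 0.12 and 0.54 ± 0.37 (SE). The corepressors Ncor1 and Tle4 had -0.23 ± 0.10 and -0.24 ± 0.17, with edgeR adjusted p of 0.385 and 0.635. Without mutant library 4 the value of Ncor1 was -0.17, with an adjusted p of 0.589. Tle4 had 340 CPM in parental library 4 and 186 to 219 CPM in the other parental libraries, and without parental library 4 its value was -0.03, with an adjusted p of 0.984. Genes of inhibition and turnover held the smallest p of the 53. Dtx1, a Deltex ubiquitin ligase that binds the receptor, had 6.69, 3.21, 2.38 and 6.71 CPM in the parental line and 14.2, 6.72, 14.6 and 14.5 CPM in the mutant line. Its lines were parted by the narrow step from 6.71 to 6.72 CPM, since mutant library 2 lay beside the upper parental values. The fitted log2 fold change of Dtx1 was 1.40 ± 0.44 (SE), at an adjusted p of 0.147, which ranged from 0.0579 to 0.377 over the alternatives. Dtx2, a relative, had -0.57 ± 0.24 with an adjusted p of 0.334. Nrarp, a feedback inhibitor that Notch switches on and also named after its values were seen, had at most 3 counts in any library.

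**Figure D4:**
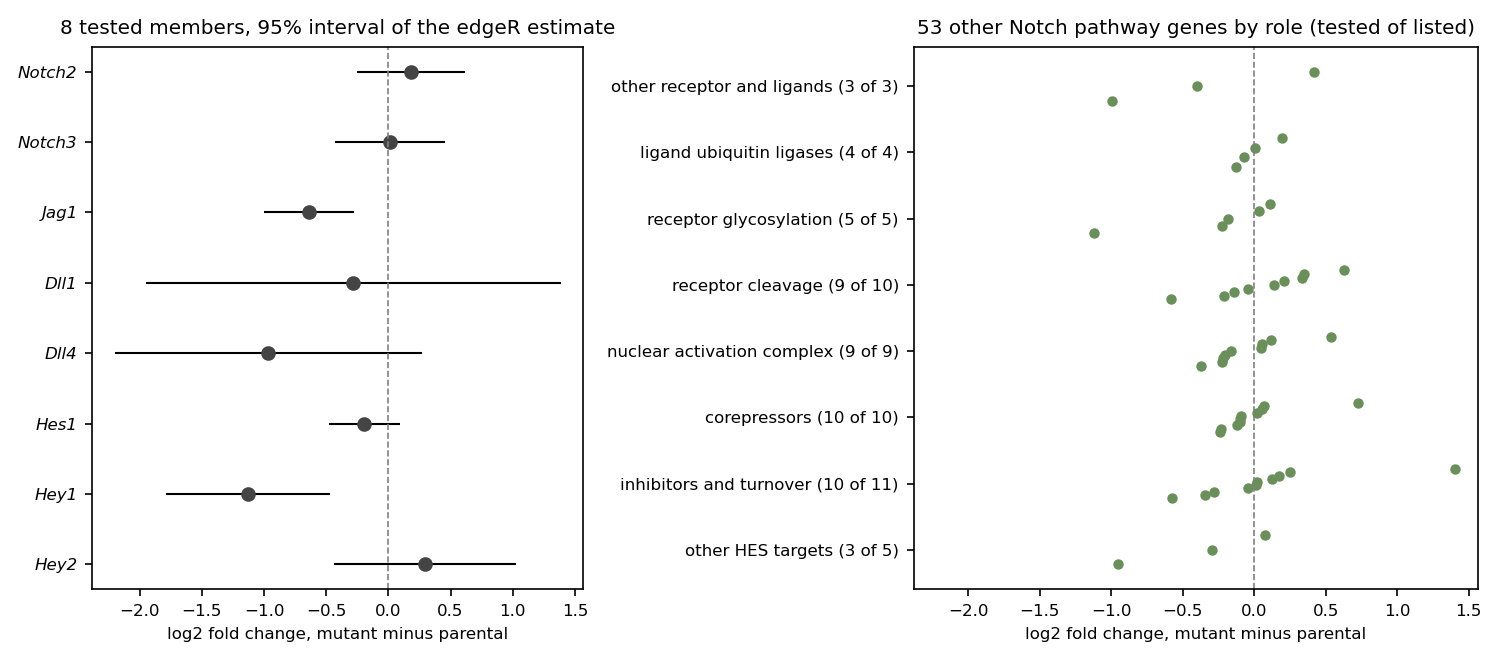
Log2 fold change, mutant minus parental, of the 8 tested members (left) and of 53 other tested Notch pathway genes (right). Lines at left are 95% intervals, not adjusted for the number of genes. Each point at right is a gene, in rows by role. The intervals of Jag1 and Hey1 do not cross 0, those of the other 6 members do, and the points at right scatter on both sides of 0 with Dtx1 farthest to the right at 1.40.

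Dll1 and other genes of the segmentation clock differed widely between libraries of the mutant line. Coefficients of variation there were 75.6% for Dll1, 67.1% for Lfng, 136% for Dll3 and 135% for Hes7. In the parental line they were 72.4%, 56.4%, 22.9% and 26.0%, in the same order. Dll3, a Delta-like protein of presomitic mesoderm that does not activate receptors on neighbours, had 11.03, 15.2, 18.9 and 13.2 CPM in the parental line and 2.67, 22.3, 0.903 and 3.55 CPM in the mutant line. Mutant library 2 had the highest value of all 8, and the other 3 mutant libraries lay below every parental library. Hes7, the oscillating repressor of the clock, had 7.96 to 15.4 CPM in parental libraries and 5.68, 17.6, 0.723 and 0 CPM in mutant libraries 1 to 4. Lfng had its highest mutant value, 5.202 CPM, in mutant library 2 as well, and Dll1 had 7.37 CPM there and at most 5.195 CPM in the other mutant libraries. Parental library 3 was the highest parental library for all 4 of these genes. Dll3 had a log2 fold change of -0.996 ± 0.62 (SE) with an edgeR adjusted p of 0.575. Without mutant library 2 it was -2.65, with an adjusted p of 0.00853, in a fit that called 1.71% of all genes. Hes7 had -0.95 ± 0.74 with an adjusted p of 0.679. Its value was -2.37 without mutant library 2 (adjusted p = 0.149), -0.58 without mutant library 3, -0.57 without mutant library 4, -2.41 with limma-voom and -1.85 under a replicate block, in which the library number is a further term of the fit. Lfng had -1.68 without mutant library 2. Of the remaining relatives, Hes5, a HES repressor of neural progenitors, had -0.30 ± 0.96 with an adjusted p of 0.948. Notch4, the receptor of endothelium, had 4.13 to 9.81 CPM in the parental line and 4.10 to 12.5 CPM in the mutant line, a log2 fold change of 0.42 ± 0.44 with an adjusted p of 0.775.

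The summed level of markers of presomitic and paraxial mesoderm was highest in the same libraries. Single markers did not all peak there. Mesp1 and Mesp2 had their highest levels, 4.38 and 3.28 CPM, in mutant library 4, and Tcf15 its highest, 6.78 CPM, in parental library 2. Of 10 such markers 7 were tested and 0 called in edgeR, where 1.42% of all genes were called. Their summed level was 43.4 to 79.5 CPM in parental libraries, with the highest value in library 3. The sum was 72.2 CPM in mutant library 2 and 14.6 to 21.4 CPM in the other 3 mutant libraries. Dll1 lay inside its wide parental range, 0.362 to 8.73 CPM, in every mutant library, whether the sum was high or low. Msgn1 was at 0 in every library. The part of such cells in the levels of Dll1, Dll3, Lfng and Hes7 was not tested.

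**Figure D5:**
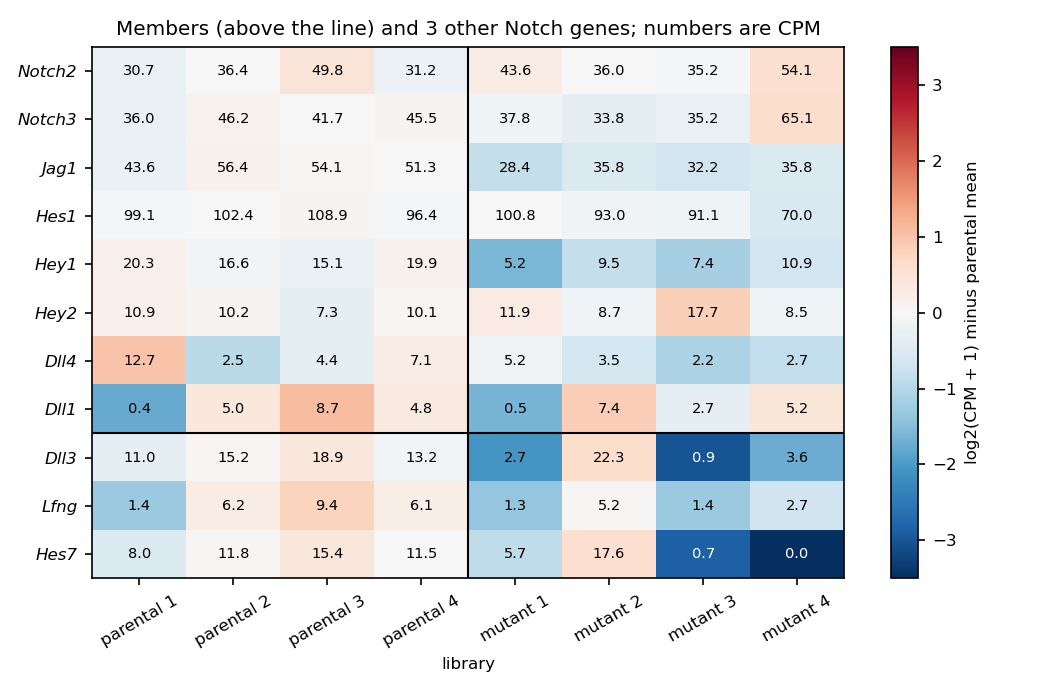
Levels of the 8 tested members and of Dll3, Lfng and Hes7 in each library, coloured by log2(CPM + 1) minus the parental mean, with the CPM printed in each cell. Jag1 and Hey1 are blue in all 4 mutant libraries, whereas Dll3, Lfng and Hes7 are low in mutant libraries 1, 3 and 4 and not in mutant library 2.

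Other cell types that use Notch genes were set beside Jag1 and Hey1. The calls given here are those of edgeR, which called 1.42% of all tested genes. For 18 endothelial and endocardial markers, 17 of them tested, the summed level was 606 to 1017 CPM in the parental line and 778 to 1466 CPM in the mutant line, and 13 had positive log2 fold changes with 1 called higher. For 13 cardiomyocyte markers, 12 of them tested and 0 called, it was 675 to 3931 CPM in the parental line and 133 to 1064 CPM in the mutant line, with 0 positive log2 fold changes. For 8 smooth muscle and pericyte markers the sum was 327 to 1302 CPM in the parental line and 448 to 602 CPM in the mutant line, with 7 tested and 0 called. Erythroid markers differed most, with 4 of 8 called higher and sums of 125 to 179 CPM in the parental line and 673 to 974 CPM in the mutant line. Endoderm markers had sums of 258 to 493 CPM in the parental line and 253 to 285 CPM in the mutant line, with 2 of 9 tested genes called lower. Sox17 is on both the endothelial and the endoderm list. Neural and pluripotency markers had overlapping sums, of 28.1 to 57.8 CPM and 16.6 to 29.4 CPM over all libraries, and 0 called. The part of these cell types in the values of Jag1 and Hey1 was not tested.

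The genes whose levels followed Jag1 and Hey1 most closely over the 8 libraries were found by the root-mean-square difference of centred log2 CPM among 9012 genes with a mean of at least 10 CPM. This measure includes the difference between the lines, so the lower mutant level of these genes follows from how they were picked. Their p-values and calls describe them and are no separate evidence. For Jag1 they included Slc6a6, a taurine transporter, at 0.07, and Dctd, a deoxycytidylate deaminase, at 0.12, both on the log2 scale. Slc6a6 had 347 ± 26.7 CPM in the parental line and 233 ± 19.3 CPM in the mutant line (SD, n = 4 per line), and fell by 0.58 on the log2 scale with an edgeR adjusted p of 0.00612. Dctd had -0.46 ± 0.20 (SE), with an adjusted p of 0.377. For Hey1 they were Elp2, a subunit of the Elongator complex, at 0.22, B3glct, a glucosyltransferase, at 0.25, and Isl1, a LIM homeodomain factor of the second heart field, at 0.27. Elp2 fell by 0.98 with an adjusted p of 0.000371, and B3glct had -0.84 ± 0.21 with an adjusted p of 0.0508. B3glct was called in 7 of 19 other settings, among them DESeq2 at 0.0116, limma-voom at 0.0299 and the replicate block at 0.0277, and its adjusted p reached 0.166 without parental library 4. Isl1 had 75.8, 76.4, 69.4 and 73.4 CPM in the parental line and 34.4, 54.2, 34.0 and 64.5 CPM in the mutant line. Its log2 fold change of -0.67 ± 0.19 (SE) had an edgeR adjusted p of 0.108. Isl1 was called in 5 of 19 other settings, among them DESeq2 at 0.0493 and limma-voom at 0.0303, and its adjusted p reached 0.286 without parental library 2.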

How the data were processed

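The authors deposited 1 table of whole-number read counts per gene for 8 QuantSeq libraries of polyadenylated RNA. Per the submitters' processing notes, STAR and featureCounts were used with build mm10; versions are not given in the sources used here. Forward-strand counting is given in the title of the authors' table. Gene IDs were paired with symbols and GRCm38 coordinates through GENCODE M21, in which 55227 of 55487 rows had a symbol.

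Counts were filtered with filterByExpr (13280 genes kept, 99.5% of counts), scaled by TMM and tested with edgeR 4.0.16 (quasi-likelihood, line as the only term, two-sided) in R 4.3.3, with Benjamini-Hochberg adjustment over all 13280 genes and a threshold of 0.05. Alternatives included DESeq2 1.42.0 and limma 3.58.1 (voom). Single members were also tested by an exact permutation test of mean log2 CPM over 70 assignments. The code was tested on simulated data. No libraries were found to be duplicates. Intervals of shares and floors of 3 counts cover counting error only, since QuantSeq reads counted here carry no stated molecular identifiers.

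The members and lists were chosen with earlier results of these data known. Genes named are Tbx1, the members, per role of the pathway the 2 genes with the smallest p, and the 3 genes nearest to each of the 2 members with the smallest p. A gene so selected is not reported here. Promoter sequences are from RefSeq on GRCm38.p6.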

Additional observations from a re-analysis of the deposited data

Results flagged for a closer look

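A library lay far from the other 3 of its line, by Dixon's 95% criterion, in 4 of 52 groups of 4 libraries examined, where chance gives about 1 in 20. Notch3 had 65.1 CPM in mutant library 4, against 33.8 to 37.8 CPM in the other mutant libraries. Ncor1 had 394 CPM in mutant library 4, against 466 to 480 CPM. Dtx1 had 6.72 CPM in mutant library 2, against 14.2 to 14.6 CPM. Dll3 had 22.3 CPM in mutant library 2, against 0.903 to 3.55 CPM.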

How the results depend on the processing

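edgeR called 188 genes, 99 higher and 89 lower in the mutant line. The count was 439 with no low-count filter, 405 with DESeq2 and 86 at an adjusted p under 0.01, and 103 to 235 when each library was left out in turn, with 103 without parental library 2, 104 without parental library 3 and 116 without mutant library 3. Scaling by library size alone gave 100 higher and 57 lower. The count of members called, 0 in edgeR, was 2 with DESeq2 and 1 with quality-weighted limma-voom, and 0 to 1 when a library was left out. That of the other pathway genes, also 0, was 0 to 1, the 1 being Dll3 without mutant library 2. For Hes1 the exact permutation test gave a log2 difference of -0.28 with p = 0.0286 after thinning to equal depth, against -0.21 and 0.0857. These signs turned. Notch3, at 0.01, was -0.068 with limma-voom, -0.18 with quality weights, -0.026 with the replicate block, -0.06 without parental library 1, -0.0024 without parental library 3 and -0.25 without mutant library 4. Hes5, at -0.30, was 0.19 without parental library 2 and 0.13 without mutant library 1, with a lowest value of -0.82 among fits without a library, and it was -1.49 with limma-voom and -1.54 with quality weights. Dll1, at -0.28, was 0.20 without parental library 3 and 0.09 without mutant library 1, and -0.79 at the lowest of such fits, without mutant library 2. Neurl1b, at -0.13, was 0.12 without mutant library 1 and -0.37 at the lowest, without mutant library 2. The cause was not tested. Libraries of the same replicate number deviated together with correlations of 0.10, 0.02, -0.03 and 0.03, so the numbers were not taken as pairs. With the replicate block 234 genes and 0 members were called, with an edgeR adjusted p of 0.0891 for Jag1 and 0.101 for Hey1. Low counts limit Notch1, Heyl, Dll1 and Dll4.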
